A study of Mus musculus with 18 samples.

Results

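The nuclear-encoded subunits of the mitochondrial respiratory chain were examined across the 6 groups of a miRNA pulldown experiment. Members were the loci whose listed symbols included one starting with Nduf, Uqcr or Atp5, a Cox symbol followed by a number from 4 to 8, or one of Sdha, Sdhb, Sdhc and Sdhd, without pseudogene symbols. This rule found 108 loci carrying 92 such symbols among 52179 loci with a symbol, out of 168136 loci in all. It takes in complex I subunits and their assembly factors, complex II, complex III, complex IV and ATP synthase. Cox4i1 was not analysed here.

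The respiratory chain sits in the inner mitochondrial membrane, where complexes I to IV pass electrons from NADH and succinate to oxygen. Complexes I, III and IV pump protons, and ATP synthase uses the returning protons to make ATP. A few hydrophobic subunits are encoded by mitochondrial DNA. The others are transcribed in the nucleus, spliced, exported and translated in the cytoplasm, so that their finished mRNA is held mostly outside the nucleus. Neurons depend heavily on this chain for their ATP.

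All samples came from Neuro2A (N2A) cells, a mouse neuroblastoma line labelled WT, and the study asked which RNAs associate with miR-92b in the nucleus. Cells were transfected with a biotinylated miR-92b mimic or a biotinylated scrambled mimic (Scr), each at 25 nM, or were left untransfected (control), and were lysed 48 h later. RNA bound to the biotinylated mimics was collected on beads, and whether lysates of the untransfected cells passed over the beads as well is not spelled out in the sources used here. From each treatment, nuclear and whole cell lysates were taken, which gave 6 groups of 3 samples, and RNA with a poly(A) tail was selected for the libraries. Repeated experiments are described for other readouts of this pulldown, but the sources used here do not state for the sequenced samples that the 3 of a group were separate cultures, so p-values measure the spread between these samples, which may be technical.

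Each locus has a normalized count, its number of fragments after scaling for the depth of the sample, and an FPKM value, which is also divided by transcript length. Reads on named loci numbered from 3752991 to 22920038 in a sample. Of the 108 member loci, 88 (86 symbols) reached an average of 10 normalized counts across all 18 samples. They were tested within the full set of 15579 named loci that reached it. No tested member had a whole cell mean under 10, but 7 (Ndufa1, Ndufa2, Ndufa5, Ndufaf6, Ndufs8, Uqcr11 and Cox4i2) had a nuclear mean under 10 and passed through their whole cell samples, where they are high. The 20 untested loci included the only loci of Atp5k, Cox6a2, Cox6b2, Cox7a1, Cox8b and Cox8c. Cox8b and Cox8c, subunit isoforms known from muscle and testis, had no read in any sample, and 7 untested loci had all their reads in 1 sample. Of the tested loci, 8 join the member with other symbols, whose reads may be part of the value. They are Atp5b (Mir677, Snord59a), Atp5g2 (Mir688), Atp5o (Donson), Ndufa13 (Yjefn3), Ndufb2 (Adck2, Gm42420), Ndufb8 (Gm20538, Sec31b), Cox6b1 (Upk1a) and Cox7c (Gm22574). Among the tested loci, 21 have a near-identical copy elsewhere in the genome, so reads may be split between copies. Examples are Atp5l with 8 and Atp5h, Cox7c and Uqcrb with 3 each.

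Several samples stood apart. Members took 0.217% to 0.266% of named reads in the nuclear samples and 0.359% to 0.532% in the whole cell samples, except 0.756% in whole cell miR-92b sample 3. That sample had the highest normalized count of all 18 samples for 57 of the 88 tested members, and mitochondrially encoded transcripts took 7.15% of its named reads, against 2.14% to 4.15% in the other whole cell samples. Nuclear Scr samples 2 and 3 had 0.237% and 0.485% mitochondrially encoded reads, against 0.0268% to 0.112% in the other nuclear samples. Of the cell markers, 8 of 9 Neuro2A genes were tested, with Hand2 and Chgb present in both compartments. Their summed normalized count was 2859 to 3820 in nuclear and 3088 to 4656 in whole cell samples. Of 10 markers of other cell types, 3 were tested (Gfap, Pecam1 and Mbp), with a summed normalized count of 80.6 to 250.1 over all samples.

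The first comparison asked how transcripts of the chain were divided between nuclear and whole cell samples. The nuclear libraries held less of most of them, and complex III and the catalytic part of ATP synthase had the lowest medians. Averaged over the 3 treatments, 52 of 88 tested members were lower in nuclear samples and 2 were higher (limma, adjusted p below 0.05). The 52 include 5 of the 7 loci that passed the filter through their whole cell samples alone, which had to be high there to be tested. Over all tested loci, 15.8% were lower and 15.3% were higher. The median member was at -1.12 on the log2(normalized count + 1) scale, or 2.17-fold lower, while the median of all tested loci was at 0.14. Of the members, 73 lay below 0, as did 43.4% of all tested loci. The added count of 1 makes fold changes of low loci smaller. A value gives the share of a library taken by a transcript, so it also depends on the other transcripts there and is not an amount per cell. Without the 3 samples that stood apart, 49 members were lower and 2 higher with a median of -0.99, and 13.3% of all loci were lower, an alternative chosen after seeing the data.

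**Figure D1:**
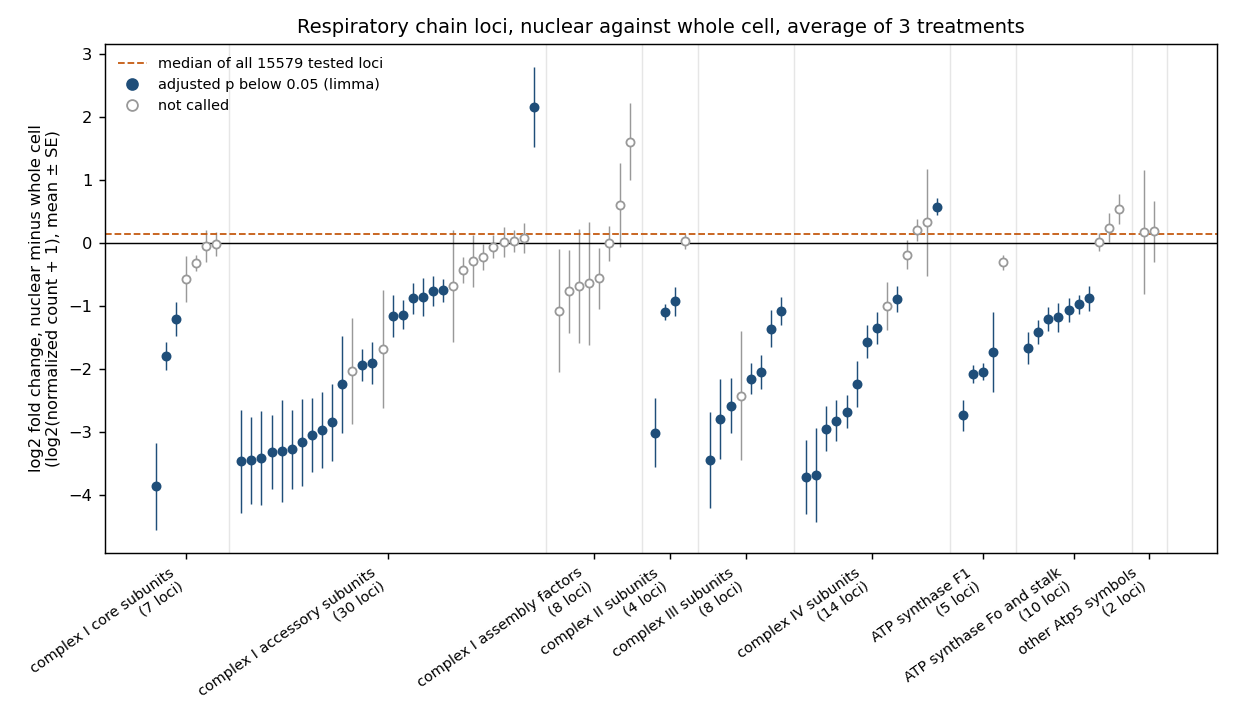
Log2 fold change of nuclear against whole cell samples, averaged over the 3 treatments (y axis, log2(normalized count + 1) scale), for the 88 tested members ordered within each complex (x axis). Points are fitted means and bars are SE over 18 samples. Filled points passed an adjusted p of 0.05, and the dashed line is the median of all 15579 tested loci. Of the members, 52 are filled below 0 and 2 are filled above 0.

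The separation was seen sample by sample for part of the members. All 9 nuclear samples lay below all 9 whole cell samples for 21 of 88 members, against 4.4% of all tested loci. Within each of the 3 treatments, nuclear samples lay below whole cell samples with no overlap for 31 members, against 5.9% of all loci. The 31 include Ndufs8, Ndufa2 and Cox4i2, which passed the filter through whole cell samples alone, while the 21 include none of those 7 loci.

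ATP synthase is built from a catalytic F1 head, which makes ATP, and a membrane part, Fo, through which protons flow. Of 5 F1 subunits, 4 were lower in nuclear samples, with a median of -2.05. Atp5b, the catalytic beta subunit (locus at chr10:128083273-128090391, GRCm38), had the highest level per length of all members, with a median FPKM of 90.0 in nuclear and 503 in whole cell samples. Its normalized count was 1051, 945 and 1005 in nuclear control, 1036, 1240 and 1740 in nuclear Scr and 1112, 1144 and 1132 in nuclear miR-92b samples. In whole cell samples it was 5473, 5682 and 4496 with control, 4027, 4162 and 3433 with Scr and 4252, 3884 and 8445 with miR-92b. Every nuclear sample lay below every whole cell sample, and the difference was -2.05 ± 0.13 (SE, n = 9 against 9, limma adjusted p = 1.13e-10). Atp5a1, the alpha subunit that alternates with beta in the head, went from 1069 to 2942 (median 1516) in whole cell samples to 278 to 500 (median 346) in nuclear samples, a difference of -2.08 ± 0.14 (limma adjusted p = 2.29e-10). Atp5d, the delta subunit of the central stalk, was at 60.5 to 132 in nuclear samples and 314 to 1496 in whole cell samples (-2.74 ± 0.24, limma adjusted p = 8.77e-09). For both subunits, too, the 2 compartments did not overlap. Atp5e, the small epsilon subunit, was at -1.73 ± 0.64 (limma adjusted p = 0.0414), and was at 0 in nuclear Scr sample 2. Its call was lost in 14 of 28 alternatives, among them a pseudocount of 0.5, no filter and equal medians, and without the 3 samples that stood apart it was at -1.01 (limma adjusted p = 0.0965). Atp5c1, the gamma subunit that turns inside the head, was at 641 to 1011 in nuclear and 786 to 1345 in whole cell samples and did not pass the test (-0.31 ± 0.12, limma adjusted p = 0.0535).

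In Fo and the stalks, 7 of 10 loci were lower, with a median of -1.02. The c subunit, which forms the rotating ring of Fo, is encoded by Atp5g1, Atp5g2 and Atp5g3. Their mature coding parts are shown so that the places where transcripts for the same mature protein differ can be seen. The first 90 bases of the mature part (GENCODE M21 transcripts on GRCm38, chromosomes 11, 15 and 2, coding strand) are given with capitals at the positions where the 3 genes are not the same:
Atp5g1: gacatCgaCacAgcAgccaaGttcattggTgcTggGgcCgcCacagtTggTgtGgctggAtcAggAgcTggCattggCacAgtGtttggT
Atp5g2: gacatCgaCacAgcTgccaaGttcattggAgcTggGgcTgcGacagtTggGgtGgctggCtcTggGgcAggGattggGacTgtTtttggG
Atp5g3: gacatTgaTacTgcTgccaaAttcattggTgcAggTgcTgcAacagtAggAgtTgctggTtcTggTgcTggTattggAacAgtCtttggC

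Of these 90 positions, 22 vary, and all 22 are the last base of a codon. Over the whole mature part of 228 bases, identity was 85.1% between Atp5g1 and Atp5g2, 79.8% between Atp5g1 and Atp5g3 and 78.5% between Atp5g2 and Atp5g3. All 3 were lower in nuclear samples. Atp5g1 was at 50.4 to 166 in nuclear and 194 to 776 in whole cell samples (-1.67 ± 0.26, limma adjusted p = 2.58e-05). Atp5g3 was at 236 to 418 in nuclear and 426 to 1022 in whole cell samples (-0.97 ± 0.15, limma adjusted p = 3.68e-05). For both, the compartments did not overlap, whereas Atp5g2 reached 501 in nuclear samples and began at 485 in whole cell samples (-1.21 ± 0.19, limma adjusted p = 3.73e-05). Per length, Atp5g2 (median FPKM 212 in whole cell samples) and Atp5g3 (137) stood above Atp5g1 (57.9), though the ranges of the 3 genes overlapped. Atp5f1 and Atp5o (in a locus joined with Donson), subunits of the outer stalk, and Atp5h and Atp5l were lower as well. Atp5j, a coupling factor, and Atp5j2 were not called, at 0.02 ± 0.15 and 0.25 ± 0.22. A second Atp5o locus within the same listed region was at 0.54 ± 0.24 (limma adjusted p = 0.0831). Loci appear to be numbered by strand within a chromosome, and this one falls among plus-strand numbers. Atp5o is annotated on the minus strand, and whether these reads come from its mRNA was not tested.

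**Figure D2:**
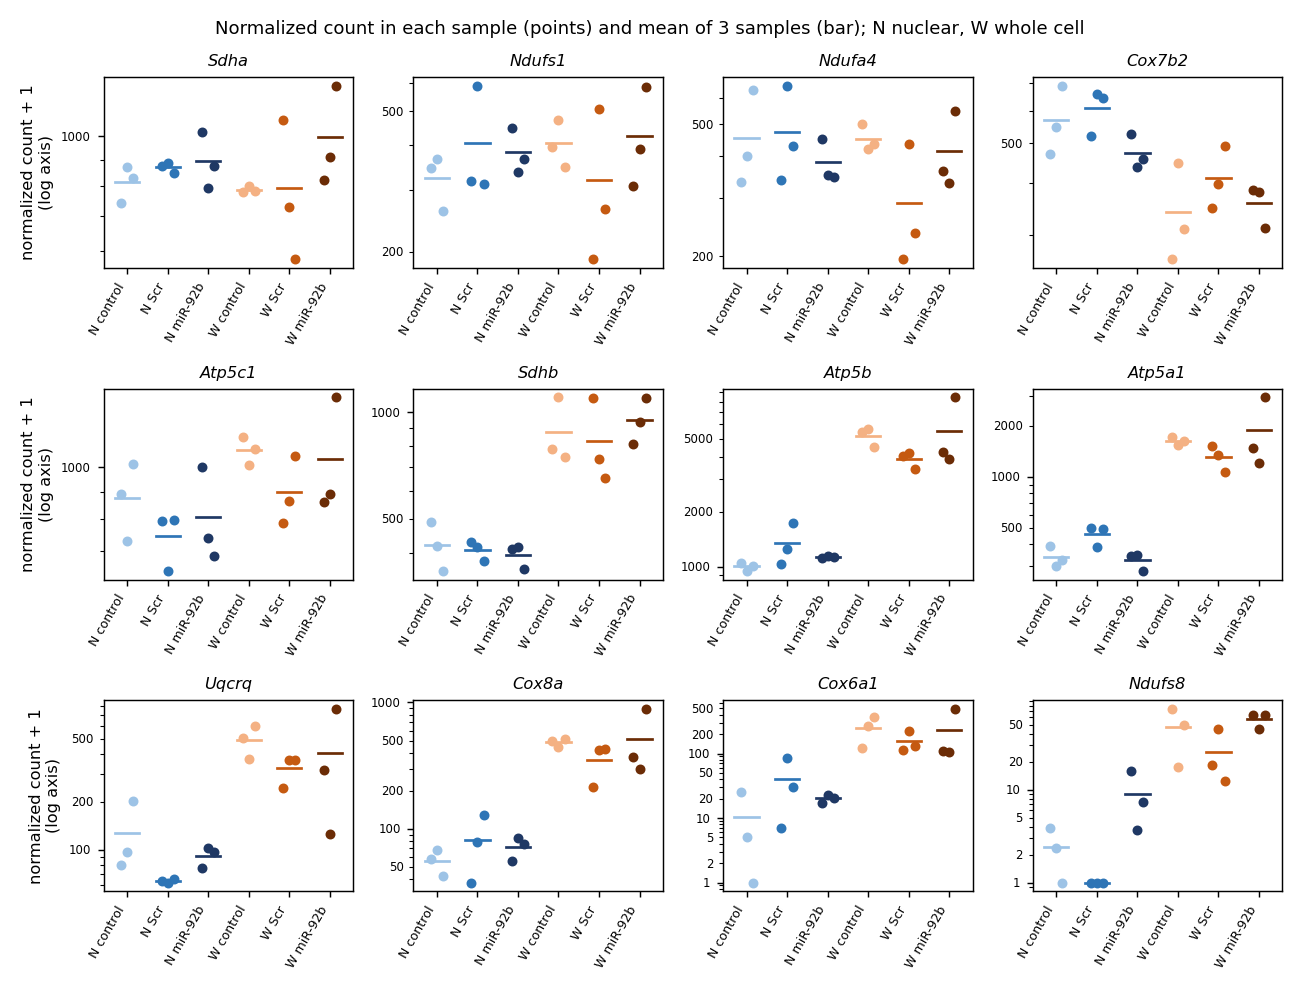
Normalized count + 1 of 12 members in each of the 18 samples (y axis, log scale), by group (x axis, N nuclear and W whole cell). Points are samples and bars are means of 3. Sdha and Ndufs1 overlap between compartments, Cox7b2 is higher in nuclear samples on this scale (its sign turns on FPKM, at -0.91), and Atp5b, Atp5a1, Sdhb and Cox8a have every nuclear sample below every whole cell sample.

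Complex I takes electrons from NADH. Its core subunits, which carry the flavin and the iron-sulfur clusters, were divided. Of 7, 3 were lower (median -0.57), with Ndufs8 among them. Ndufv1, which binds NADH, was at 54.0 to 127 (median 77.8) in nuclear and 94.0 to 277 (median 221) in whole cell samples (-1.21 ± 0.26, limma adjusted p = 0.00115). Ndufs1, the largest core subunit (listed at chr1:62958418-63180486), was at 259 to 588 in nuclear and 189 to 583 in whole cell samples. These ranges nearly coincide (-0.01 ± 0.19, limma adjusted p = 0.967). Ndufv2, Ndufs3 and Ndufs7 were not called either, at -0.32, -0.57 and -0.04.

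Ndufs8, an iron-sulfur subunit, had the most negative fitted change of the members (-3.87 ± 0.69), but its depth was low. With a nuclear mean of 3.15 and a whole cell mean of 42.1, it passed the filter through whole cell samples alone, so its values are a description. Its normalized count was 2.89, 1.34 and 0 in nuclear control, 0 in all 3 nuclear Scr samples and 15, 2.69 and 6.43 in nuclear miR-92b samples. In whole cell samples it was 72.9, 16.4 and 48.3 with control, 17.5, 43.5 and 11.5 with Scr and 62.1, 44.3 and 62.5 with miR-92b. Taken against a floor of 3 reads over the group, whole cell Scr was at least 13.9-fold higher than nuclear Scr. The fitted value depends on the added count and is not a bound.

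Accessory subunits surround the core and hold no redox centre. Of 30 loci, 19 were lower and 1 was higher, with a median of -1.42, and the 19 include Ndufa1, Ndufa2 and Ndufa5, which passed the filter through whole cell samples alone. The lowest values came from loci with few nuclear reads, such as Ndufa3 (0 to 28.7 in nuclear and 53.1 to 99.2 in whole cell samples, -3.41 ± 0.75, limma adjusted p = 0.00121) and Ndufb11 (0 to 54.1 and 63.8 to 480, -3.32 ± 0.59, limma adjusted p = 0.00014). For both loci no nuclear sample reached the lowest whole cell sample. Ndufab1, the mitochondrial acyl carrier protein, was at 153 to 311 in nuclear and 163 to 331 in whole cell samples (0.03 ± 0.18, limma adjusted p = 0.92). Ndufa6, Ndufa7, Ndufa13 and Ndufb2 also had values near 0, between -0.22 and 0.08. The Ndufa13 locus joins Yjefn3, and the Ndufb2 locus joins Adck2 and Gm42420. The part of those genes in the 2 values was not tested. None of the 8 complex I assembly factor loci was called, with a median of -0.60. Ndufaf1, which helps to build the membrane arm, was at 33.7 to 83.2 in nuclear and 0.877 to 67.5 in whole cell samples (1.61 ± 0.62, limma adjusted p = 0.0501), and was called in 7 of 27 alternatives.

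The single accessory locus higher in nuclear samples was a second Ndufa6 locus within the listed region chr15:82350139-82354318 of the main one. It was at 10.7 to 69.4 in nuclear samples. In whole cell samples it was at 9.41, 14.7 and 26.5 with control, 42.1, 18.2 and 16.0 with Scr and 0, 0 and 0.637 with miR-92b, the last from 1 read. Its averaged difference of 2.16 ± 0.64 (limma adjusted p = 0.0121) rested on miR-92b (5.15 ± 1.10, limma adjusted p = 0.00305), since the values with control (0.82) and Scr (0.51) were not called. The main Ndufa6 locus was at 0.02 ± 0.24. Like the second Atp5o locus, the second Ndufa6 locus falls among plus-strand numbers, while Ndufa6 is annotated on the minus strand. Whether its reads come from Ndufa6 mRNA was not tested.

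Complex II, succinate dehydrogenase, joins the tricarboxylic acid cycle to the chain. Its 4 subunits did not behave alike. Sdha, the flavoprotein that oxidizes succinate, was at 741 to 1020 (median 870) in nuclear and 576 to 1252 (median 799) in whole cell samples (0.03 ± 0.12, limma adjusted p = 0.873). Sdhb, the iron-sulfur subunit bound to it (listed at chr4:140906344-140980595), was at 354 to 490 (median 413) in nuclear and 651 to 1101 (median 813) in whole cell samples, with no overlap (-1.10 ± 0.13, limma adjusted p = 6.08e-07). Sdhc and Sdhd, the membrane anchors, fell by 3.01 ± 0.55 and 0.93 ± 0.23 on the log2 scale (limma adjusted p = 0.000204 and 0.00357).

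Complex III passes electrons from ubiquinol to cytochrome c. Of its 8 loci, 7 were lower, with the lowest median of any complex (-2.29). Uqcrc2, a core protein, was at 53.8 to 231 in nuclear and 228 to 539 in whole cell samples (-2.16 ± 0.25, limma adjusted p = 4.69e-07). Its ranges met only at nuclear Scr sample 3. Uqcrq, a small subunit next to cytochrome b, differed by -2.05 ± 0.27 (limma adjusted p = 4.19e-06). Uqcrfs1, the Rieske iron-sulfur protein, differed by -1.36 ± 0.29 (limma adjusted p = 0.00107), and Uqcrc1 by -1.08 ± 0.23 (limma adjusted p = 0.000816). Uqcr11, a small subunit, was not called (-2.42 ± 1.03, limma adjusted p = 0.0761), with 0 to 30.3 in nuclear and 0 to 62.5 in whole cell samples.

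Complex IV, cytochrome c oxidase, reduces oxygen. Of 14 tested loci, 9 were lower and 1 was higher (median -1.46). Cox8a was at 56.3, 67.2 and 41.1 in nuclear control, 36.6, 78.3 and 129 in nuclear Scr and 54.6, 83.2 and 74.6 in nuclear miR-92b samples. In whole cell samples it was at 495, 446 and 511, then 215, 418 and 424, then 366, 296 and 888 in the same order of treatments. The highest nuclear sample was below the lowest whole cell sample (-2.68 ± 0.26, limma adjusted p = 4.19e-08). Cox7a2l, which is known for joining complex IV to complex III, was at 28.9 to 208 in nuclear and 190 to 1363 in whole cell samples (-2.82 ± 0.32, limma adjusted p = 4.64e-07). Cox6a1 fell by 13.2-fold (-3.72 ± 0.59, limma adjusted p = 4.23e-05), from 106 to 489 in whole cell samples to 0 to 84.0 in nuclear samples. Cox4i2, an isoform known from lung and low oxygen, was at 12.9 to 262 in whole cell and 0 to 15.4 in nuclear samples (-3.69 ± 0.75). It is among the 9 although it passed the filter through whole cell samples alone, so its values are a description. Cox5a was lower (-1.57 ± 0.27, limma adjusted p = 9.83e-05), while Cox5b (-1.003 ± 0.38, limma adjusted p = 0.0503), Cox6c (-0.18 ± 0.23) and Ndufa4 (0.21 ± 0.18), which belongs to complex IV despite its name, were not called. Cox5b was called in 9 of 28 alternatives, among them edgeR (-1.22, adjusted p = 0.0134) and DESeq2 (-1.22, adjusted p = 0.00569). Ndufa4l2, its paralogue known from low oxygen, had 0 to 52.2 and was not called.

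Cox7b2, a paralogue of Cox7b known from testis, was the other member higher in nuclear samples on counts. Its normalized count was 471, 546 and 688 in nuclear control against 261, 448 and 310 in whole cell control, 521, 658 and 643 against 347, 397 and 492 with Scr, and 526, 436 and 458 against 384, 380 and 310 with miR-92b. Nuclear samples lay above whole cell samples within each treatment (0.58 ± 0.14, limma adjusted p = 0.0023), but on the FPKM scale the sign turned (-0.91, limma adjusted p = 0.0844). Cox7b itself was lower, at 13.7 to 51.1 in nuclear and 98.5 to 301 in whole cell samples (-2.25 ± 0.36, limma adjusted p = 5.29e-05).

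Taken by treatment, control samples had 36 members lower and 1 higher (all loci 6.91% and 2.94%), with a median of -1.60 (all loci 0.06). Scr samples had 15 lower and 0 higher (all loci 3.7% and 1.46%), with a median of -0.84 (all loci 0.01). At an unadjusted p below 0.05, 38 members (43.2%) differed with Scr, against 22.1% of all loci, and edgeR and DESeq2 also found 0 higher. With miR-92b, 28 were lower and 1 was higher (all loci 6.63% and 6.66%), with a median of -1.22 (all loci 0.26). Members lower in all 3 tests included Atp5a1, Atp5b, Atp5d, Sdhb, Uqcrq, Cox6b1 and Cox8a. With control, the largest falls without overlap were those of Cox6a1 (-5.50 ± 1.03), Ndufb11 (-5.19 ± 1.02) and Ndufb6 (-4.79 ± 1.19), with limma adjusted p from 0.000912 to 0.0111. As a description, they also included Ndufa1 (-4.85 ± 1.42) and Cox4i2 (-4.29 ± 1.30). Cox7b2 was the member higher on counts (0.76 ± 0.24, limma adjusted p = 0.041), at -1.12 on FPKM. Of 15 alternatives the call of Ndufa1 was lost in 6 and that of Cox4i2 in 5, and of 16 that of Cox7b2 was lost in 5 beside the FPKM scale and that of Ndufb6 in 2, while Cox6a1 and Ndufb11 kept theirs in all 16. Of the loci that passed the filter through whole cell samples alone, Ndufa1, Ndufa2, Ndufs8 and Cox4i2 are among the 36 lower with control, Ndufs8 and Ndufa2 among the 15 with Scr and none among the 28 with miR-92b, and their values are a description. With Scr the largest falls without overlap were those of Uqcrh (-4.89 ± 1.10), Ndufa3 (-4.54 ± 1.30) and Sdhc (-3.87 ± 0.96), with limma adjusted p from 0.0111 to 0.0424. As a description, they also included Ndufs8 (at 0 reads in nuclear Scr, as given above) and Ndufa2 (-3.81 ± 1.08). Uqcrh was not called by edgeR (-2.50, adjusted p = 0.188) or DESeq2 (-2.54, adjusted p = 0.0729), nor was Ndufa3 (-3.10 and -3.15, adjusted p = 0.206 and 0.0503). With the compared groups alone none of these 5 was called (limma adjusted p from 0.0971 to 0.303). With miR-92b the largest falls without overlap were those of Ndufc1 (-3.23 ± 1.05), Cox6a1 (-3.15 ± 1.03), Uqcrb (-3.14 ± 0.75), Ndufb11 (-3.05 ± 1.02) and Atp5d (-2.92 ± 0.42), with limma adjusted p from 5.58e-05 to 0.0485. Of 16 alternatives the call of Ndufb11 was lost in 11, that of Ndufc1 in 9, that of Cox6a1 in 8 and that of Uqcrb in 1 (limma adjusted p = 0.0504 without whole cell miR-92b sample 3), while Atp5d kept its call in all 16. Most of these are small subunits with few nuclear reads, whereas Atp5d was well covered.

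These counts depended on single libraries. With miR-92b and without whole cell sample 3, there were 12 lower and 1 higher, with a median of -0.81, and 6.26% of all loci were called in either direction. Without nuclear miR-92b sample 2, the deepest nuclear library, there were 18 lower and 1 higher (7.21% of all loci called). With control, 22 were lower and 1 higher without whole cell sample 2 (5.55% of all loci called), 22 and 0 without whole cell sample 3 (5.82%), and 24 and 0 without nuclear sample 3 (5.46%). With Scr, 7, 8 and 7 were lower without whole cell samples 1, 2 and 3 (2.68%, 3.67% and 2.48% of all loci called). Without the 3 samples that stood apart, 49 were lower with control (11.02% of all loci), 11 with Scr (2.79%) and 18 with miR-92b (4.85%). This leaves 1 nuclear Scr library, which is assumed to vary like the samples of the other groups. The differences between treatments were tested themselves, in contrasts added after seeing the data. For the nuclear against whole cell change with Scr minus that with control, the member median was 0.52 (all loci -0.01), and for miR-92b minus control it was 0.21 (all loci 0.16). Limma called 0 members in either, against 0% of all loci, with 5 and 1 members at an unadjusted p below 0.05 (5.68% and 1.14%, against 5.28% and 1.86% of all loci). The median for miR-92b minus control turned on single libraries, at 0.57 without whole cell miR-92b sample 3 and -0.08 without whole cell miR-92b sample 2.

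Fraction markers differed in the averaged comparison. The nuclear RNAs Malat1, Neat1 and Kcnq1ot1 were higher in nuclear samples (1.08, 1.06 and 0.98), 3 of 4 tested nuclear markers. By treatment, 3 were called with control, 0 with Scr (their median was 0.75) and 3 with miR-92b. The 4 had a summed normalized count of 117528 to 150215 in nuclear and 32720 to 85155 in whole cell samples. All 3 cytoplasmic markers, Eef2, Gapdh and Actb, were lower (-2.90, -2.35 and -2.15), also in each treatment. Their sum was 3103 to 5036 in nuclear control, 4420 to 9211 in nuclear Scr and 4028 to 4278 in nuclear miR-92b samples, against 18950 to 67620 in whole cell samples. Its highest nuclear value was in the Scr group. The part of carried-over cytoplasmic RNA in the members' values was not tested.

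FPKM divides by transcript length, and on that scale the difference was wider. With limma on log2(FPKM + 0.1), 64 of 88 members were lower (16.1% of all loci) and 2, Ndufaf1 and the second Ndufa6 locus, were higher (8.92%), with a median of -2.10 against 0.02 for all loci. All 52 members lower on counts, with the 5 that passed the filter through whole cell samples alone, were also lower on FPKM. Another 12 were lower on FPKM alone, namely Atp5c1, Ndufs3, Ndufs7, Ndufv2, Ndufa6, Ndufa7, Ndufb2, Ndufs4, Ndufs6, Cox5b, Cox6c and Ndufa4. Ndufs7, an iron-sulfur core subunit, shows the gap between the scales. Its normalized count was 152 to 395 in nuclear and 110 to 451 in whole cell samples, while its FPKM was 4.72 to 13.0 in nuclear and 14.1 to 115 in whole cell samples, with no overlap.

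**Figure D3:**
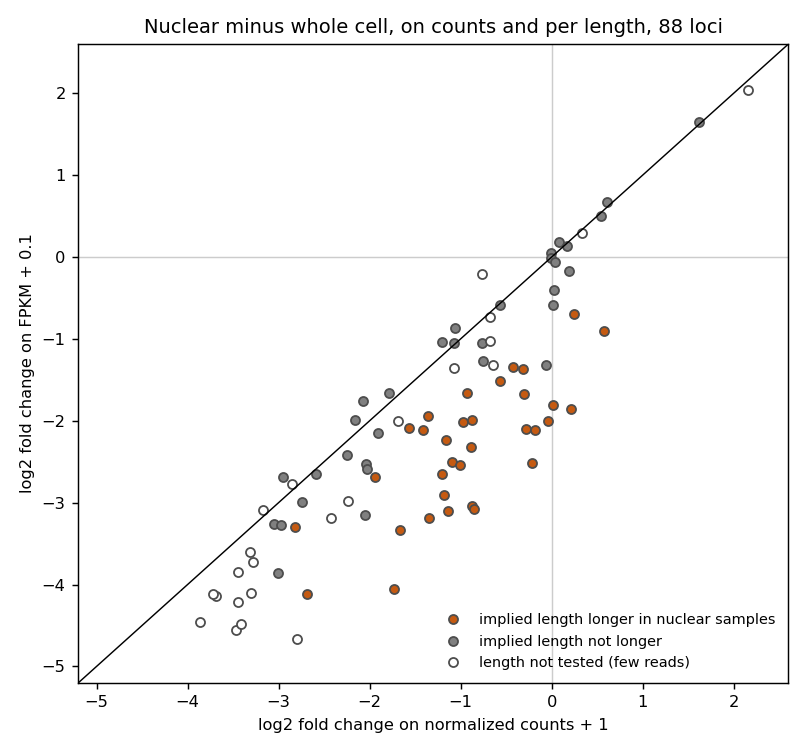
Log2 fold change of nuclear against whole cell samples on normalized count + 1 (x axis) and on FPKM + 0.1 (y axis) for the 88 tested members. The line marks equal changes. Members with a longer implied transcript length in nuclear samples (33, filled orange) lie below the line. This place follows from how they were picked, since the length is count over FPKM. Some of the 33 are near 0 on counts. Sdha and Ndufs1, also near 0 on counts, lie close to the line.

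The ratio of normalized count to FPKM gives the transcript length that the authors' software assigned to a locus in a sample, here called the implied length and scaled per sample to genes with 1 annotated transcript. This measure was added after seeing the data. It could be tested for 65 of the 88 members with enough reads. In nuclear samples 33 were longer and 2 were shorter (limma, adjusted p below 0.05), against 10.1% and 17.2% of 11691 loci tested. The median member was 1.49-fold longer (log2 0.58), and the median of all loci was at -0.03. Of the 33 longer members, 31 were lower on FPKM, while 20 were lower, 12 not called and 1 higher on counts. Since the implied length is count over FPKM, a member picked as longer falls further on FPKM than on counts. These numbers therefore only describe the 33.

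Some members near 0 on counts had large differences in implied length. Ndufa7, an accessory subunit, had an implied length of 978 to 3175 nucleotides (median 2058) in nuclear samples and 331 to 481 (median 438) in whole cell samples, where the longest annotated transcript has 640 (4.54-fold, limma adjusted p = 9.1e-06). Ndufs7 had 1883 to 4441 (median 3474) against 506 to 1412 (median 978), with an annotated 983 (3.63-fold, limma adjusted p = 1.24e-05). Ndufa4 had a median of 3275 against 859 (3.85-fold, limma adjusted p = 5.06e-05) and Atp5c1 of 4195 against 1696 (2.38-fold, limma adjusted p = 5.63e-05). Nuclear and whole cell ranges did not overlap for Ndufa7 and Ndufs7. Sdhb, which was lower on counts, also had longer nuclear values, with a median of 4046 against 1475 and a longest annotated transcript of 1232 (2.46-fold, limma adjusted p = 6.93e-06). Cox7b2 had 5381 against 2155, both beyond its annotated 542.

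Among the 33 longer members, the nuclear median exceeded the longest annotated transcript for 23 and the whole cell median for 3. The scale in nucleotides is approximate, since 39.4% to 49.2% of the single-transcript genes lay within 20% of their annotated length in nuclear samples and 49.7% to 67.6% in whole cell samples. The single-transcript genes have transcripts of at least 1000 bases, while the median member mRNA has 861. How close the scale comes for shorter members was not tested. Of the 32 longer members with a value in every sample, 16 had all 9 nuclear values above all 9 whole cell values. These 32 were picked as longer in nuclear samples, so this count only describes them and is not set against all loci. Atp5a1 was shorter in nuclear samples (0.739-fold, median 1793 against 2199, limma adjusted p = 0.0389), as was Ndufaf7 (0.937-fold). Sdha (0.978-fold), Ndufs1 (0.922-fold) and Uqcrb (0.936-fold) were not called. Whole cell miR-92b sample 3 had the shortest whole cell value for 30 of the 65 members. Unspliced RNA, overlapping genes and the assembly of loci can each change an implied length, and their part was not tested. The listed region was over 2 times as long as the annotated gene for 23 of 87 members with an annotation. By annotation the member genes are short, with a median mRNA of 861 bases, 4 exons and a span of 7456 bases. For all protein-coding genes these medians are 2553, 7 and 17368 (GENCODE M21). The mRNA and exons are those of the transcript with the longest coding sequence, which is not always the longest transcript. A retained-intron transcript is annotated for 53.8% of member genes and 41.9% of all.

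**Figure D4:**
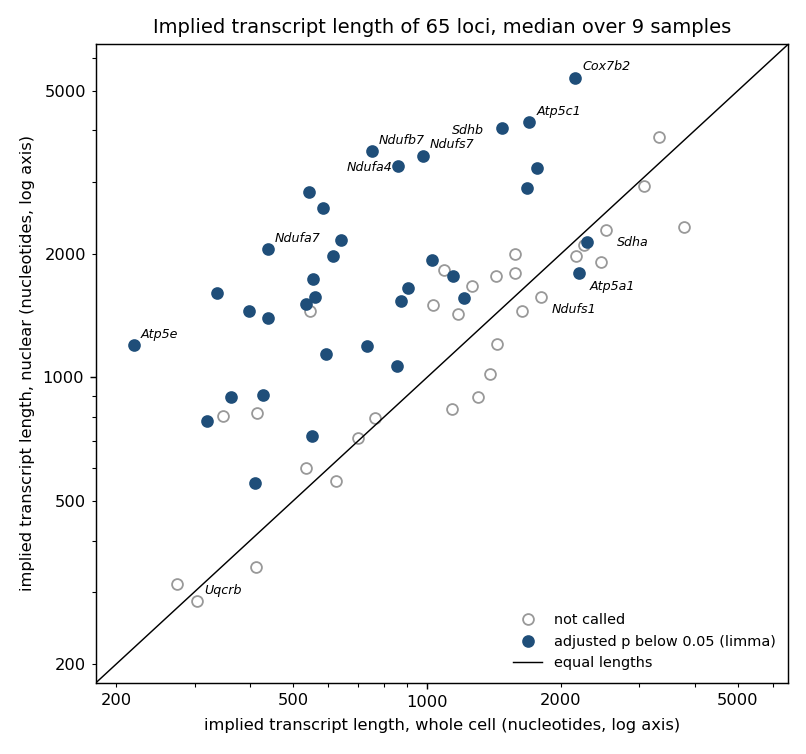
Implied transcript length in nucleotides, median of 9 nuclear samples (y axis, log scale) against median of 9 whole cell samples (x axis, log scale), for 65 members. Filled points passed an adjusted p of 0.05 and the line marks equal lengths. The called members lie above the line, except Atp5a1 and Ndufaf7.

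The pulldown itself was addressed by comparing miR-92b with Scr. A miRNA recognizes targets mainly through its seed, bases 2 to 8, paired to the 3' UTR of an mRNA. The mature mouse miR-92b-3p and 2 of its relatives are shown because all 6 members of this seed family in RefSeq share the bases in capitals, the seed (RefSeq, GRCm38.p6, with miR-92b-3p at chr3:89227126-89227147 on the minus strand, miR-92a-3p at chr14:115044476-115044496 on the plus strand and miR-25-3p at chr5:138165332-138165353 on the minus strand):
miR-92b-3p: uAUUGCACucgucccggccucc
miR-92a-3p: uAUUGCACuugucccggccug
miR-25-3p: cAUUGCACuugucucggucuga

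The 3' UTRs of the member genes were searched on the coding strand for GTGCAAT, the complement of the seed, and for TGCAATA, the complement of bases 2 to 7 followed by A, which overlap in GTGCAATA. For each gene, only the transcript with the longest coding sequence was searched. A match was found in 3 of 91 member genes (3.30%), against 10.97% of 21747 protein-coding genes (GENCODE M21). Member 3' UTRs are short, with a median of 159 bases against 731. The 3 matches are shown, with 8 bases on either side and the match in capitals, all on the minus strand, at chr3:105942715-105942721 for Atp5f1, chr6:24518684-24518690 for Ndufa5 and chr13:30540495-30540501 for Uqcrfs1:
Atp5f1: aagcatctTGCAATAaaatgttt
Ndufa5: aattaaatGTGCAATtaaatgct
Uqcrfs1: cttgaaagGTGCAATgtctttga

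None of the 3 passed the test between miR-92b and Scr. Uqcrfs1 was at 99.1, 89.1 and 260 in whole cell Scr and 224, 167 and 562 in whole cell miR-92b samples (1.06 ± 0.51, limma unadjusted p = 0.0489, adjusted p = 0.509), and at -0.30 ± 0.51 in nuclear samples. Ndufa5 was at 0.877, 15.2 and 39.3 with Scr and 82.8, 40.0 and 49.7 with miR-92b in whole cell samples, without overlap (2.38 ± 1.33, limma adjusted p = 0.576), and at -1.01 ± 1.33 in nuclear samples. Ndufa5 passed the filter through whole cell samples alone, so its values are a description. Atp5f1 was at 0.19 ± 0.32 in whole cell and -0.03 ± 0.32 in nuclear samples. A match is a sequence of letters and does not show binding.

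In nuclear samples limma called no member between miR-92b and Scr in the main fit (0 of 88, 0% of all loci). At an unadjusted p below 0.05 there were 7 members, or 7.95%, against 4.41% of all loci. The member median was -0.05 and that of all loci 0.11. With each sample left out the member median ranged from -0.10 without nuclear miR-92b sample 1 to 0.03 without nuclear Scr sample 3. With no overlap, 5 members (Atp5l, Ndufa1, Ndufa2, Ndufs8 and Uqcrq) had miR-92b above Scr (6.28% of all loci) and 4 (Atp5a1, Ndufb9, Ndufc2 and Cox7a2) had it below (3.81%). Of the 5, Ndufa1, Ndufa2 and Ndufs8 passed the filter through whole cell samples alone, so their values are a description. Ndufs8 had 0, 0 and 0 reads with Scr and 11, 8 and 5 with miR-92b. Ndufa1 had 0, 0 and 1 reads with Scr and 4, 6 and 6 with miR-92b. The smallest p-values came from Uqcrh, the hinge protein of complex III, and Ndufa2. Uqcrh was at 62.5, 0 and 0 with Scr and 31.4, 54.9 and 36.0 with miR-92b (3.35 ± 1.10, limma unadjusted p = 0.00581, adjusted p = 1), which overlapped. Ndufa2, an accessory subunit of complex I, was at 1.52, 1.15 and 0 with Scr and 9.56, 12.1 and 21.9 with miR-92b (3.06 ± 1.08, limma unadjusted p = 0.00944, adjusted p = 1). On the lower side were Ndufc2 and Atp5a1. Ndufc2 was at 76.2, 95.5 and 78.2 with Scr and 34.1, 41.1 and 30.9 with miR-92b (-1.22 ± 0.59, limma unadjusted p = 0.049, adjusted p = 1). Atp5a1 was at 500, 386 and 494 with Scr and 341, 346 and 278 with miR-92b (-0.51 ± 0.25, limma unadjusted p = 0.0497, adjusted p = 1). edgeR and DESeq2 also called 0 members.

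In whole cell samples limma called 0 of 88 members (0.00642% of all loci), with 2 at an unadjusted p below 0.05, or 2.27%, against 9.72% of all loci. Of the members, 67 lay above 0 with a median of 0.33, where all loci had a median of -0.01 and 51.1% of them lay below 0. Without whole cell miR-92b sample 3 the member median was -0.01, and without sample 2 it was 0.62. With no overlap, 4 members (Ndufa2, Ndufa5, Ndufs8 and Atp5sl) had miR-92b above Scr (4.32% of all loci) and 1 had it below (4.6%). Of the 4, Ndufa2, Ndufa5 and Ndufs8 passed the filter through whole cell samples alone, so their values are a description. The 1 below was the second Ndufa6 locus, at 48, 18 and 61 reads with Scr and 0, 0 and 1 with miR-92b. The fitted value (limma -4.36 ± 1.10, adjusted p = 0.259) depends on the added count and is not a bound. This locus was the only member called by DESeq2 (adjusted p = 0.00585), which is 1.14% of members against 1.13% of all loci, and edgeR called 0. The smallest p-values above 0 were those of Uqcrfs1, given above, and Uqcrc1 (0.78 ± 0.39, limma adjusted p = 0.528). Below 0, the smallest after the second Ndufa6 locus was that of Ndufv2 (-0.27 ± 0.22, limma adjusted p = 0.726). The nuclear effect of miR-92b against Scr minus the whole cell effect had a member median of -0.28 (all loci 0.18), and limma called 0 members (0.00642% of all loci), with 4 at an unadjusted p below 0.05 (4.55%, all loci 7.21%). edgeR and DESeq2 called 0 as well. Without whole cell miR-92b sample 3 the median of this difference was 0.07, and without sample 2 it was -0.56.

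**Figure D5:**
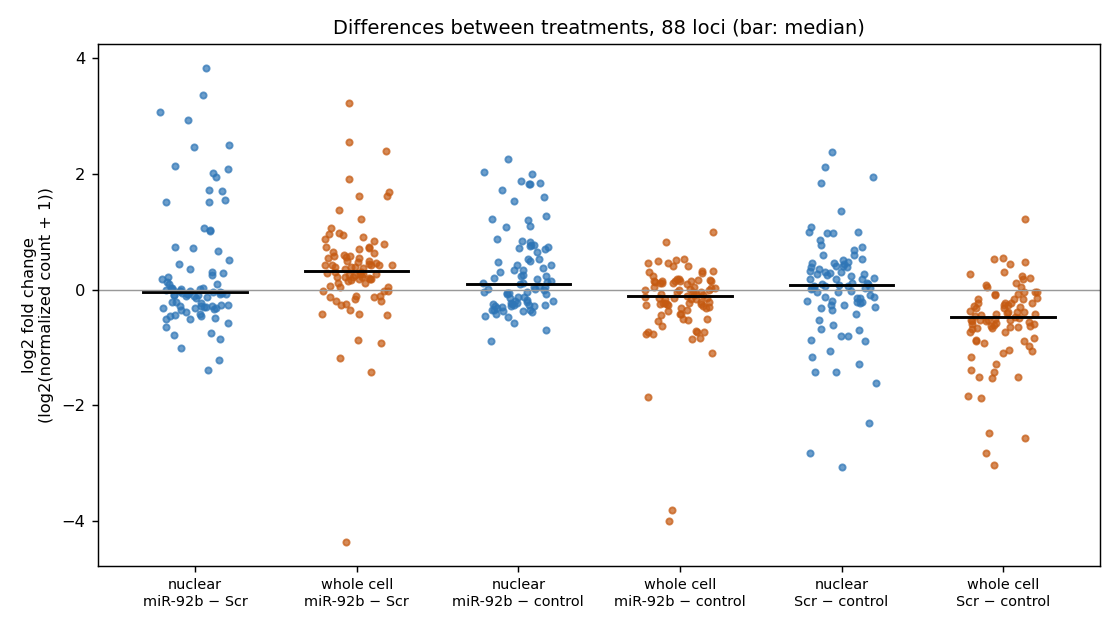
Log2 fold change between treatments (y axis, log2(normalized count + 1) scale) of the 88 tested members in nuclear (blue) and whole cell (orange) samples, for the 6 comparisons (x axis). Each point is a member and each bar is the median, from -0.48 to 0.33. No point passed an adjusted p of 0.05 with limma.

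Against untransfected control cells, no member was called by limma with either mimic (0 of 88 in each comparison). For nuclear miR-92b the member median was 0.10 (all loci 0.03, 0% called), with 0 members at an unadjusted p below 0.05 (0.321% of all loci), and without nuclear control sample 3 the median was 0.051. For whole cell miR-92b it was -0.10 (all loci -0.10, 0.00642% called), with 2 members at that p (2.27%, all loci 4.69%). This median was -0.49 without whole cell miR-92b sample 3, 0.15 without sample 2 and 0.02 without sample 1. For nuclear Scr it was 0.07 (all loci -0.07, 0% called), with 5 members (5.68%, all loci 5.88%). Its median was -0.057 without nuclear control sample 3 and 0.16 without nuclear Scr sample 1. For whole cell Scr it was -0.48 (all loci -0.09, 0% called), with 1 member (1.14%, all loci 5.09%). edgeR and DESeq2 called 0 members in these 4 comparisons. In whole cell Scr samples 74 of 88 members lay below control, as did 57.2% of all loci. Ndufa4, for example, was at 499, 421 and 436 in whole cell control and 195, 435 and 235 in whole cell Scr samples (-0.73 ± 0.31, limma unadjusted p = 0.0267, adjusted p = 0.957). These comparisons share control or Scr samples, so their medians are not independent of each other.

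Genes around the chain were taken from lists of related roles, whose counts stand against 15.8% of all loci lower and 15.3% higher. Of 32 tested assembly factors outside the symbol rule, 8 were lower and 2 were higher in nuclear samples averaged over treatments (median -0.35). Uqcc2, an assembly factor of complex III, was at -3.57 ± 0.78 and Coa3, of complex IV, at -2.35 ± 0.66 (limma adjusted p = 0.00124 and 0.00914). Timmdc1 and the locus joining Acad9 with Gm43079, which help to build complex I, were higher at 0.93 ± 0.16 and 0.42 ± 0.14 (limma adjusted p = 0.000115 and 0.0275). Of 5 electron carriers, 4 were lower (median -0.74), among them the locus joining Etfb with other symbols at -1.82 ± 0.34, Cycs, which encodes cytochrome c, at -0.81 ± 0.28, and Cyc1, cytochrome c1 of complex III, at -0.74 ± 0.14. Of 12 tricarboxylic acid cycle genes, 8 were lower and 0 higher (median -0.71), among them Cs, citrate synthase (-1.37 ± 0.14, limma adjusted p = 1.44e-07). Of 12 tested regulators of mitochondrial genes, 3 were lower and 0 higher (median -0.25), namely Tfam, the packaging factor of mitochondrial DNA (-0.47 ± 0.17), Gabpa (-0.43 ± 0.15) and the locus that joins Esrra with Mir6990 (-0.94 ± 0.23), while Nrf1 was at -0.13 ± 0.17. Ppargc1a had a mean normalized count of 0.387 and was not tested.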

How the data were processed

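Per the labels and the study's methods, mRNA was selected with oligo-dT beads for stranded libraries. The authors trimmed reads (Trimmomatic 0.30), mapped them with TopHat2 on mouse GRCm38 (mm10) and assembled loci with Cufflinks. The sources used here give no version for TopHat2, Cufflinks or the annotation. Normalized counts as deposited are a signal, the fragments of each locus scaled by 1 factor for each sample, and the deposited FPKM values also account for transcript length. The authors' comparison tables (fold changes, p-values and q-values) were not used.

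Of 635205 normalized counts above 0, 99.9% were whole reads within 0.02 reads, and these recovered reads were used for depth, edgeR (4.0.16) and DESeq2 (1.42.0). Because the values were normalized, the main test was limma (3.58.1, R 4.3.3) with its trend option, two-sided, fitted to log2(normalized count + 1) with all 6 groups together, with Benjamini-Hochberg adjustment over 15579 loci and a threshold of 0.05. Samples were grouped by their titles. The implied length needed at least 10 reads per sample and was scaled to 358 genes with 1 annotated transcript. These genes had a transcript of at least 1000 bases and at least 50 reads in every sample. Tests were checked on simulated data.

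Members and lists were chosen with earlier results of these data known. Named genes were a preset list of subunits by role, paralogues of other tissues, and per comparison up to 5 members per direction past the threshold without overlap, or the 2 with the smallest p. All other members named in the text, the implied length and the fits without 3 samples were chosen after values were seen. Alternatives were pseudocounts, filters, FPKM, equal medians, compared groups alone, a replicate block, edgeR, DESeq2 and each sample left out. Some genes of these lists are not reported here.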

Additional observations from a re-analysis of the deposited data

How the results depend on the processing

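Counts of called members in the averaged comparison stayed within 1.5 times the main 54 under every alternative run. With each sample left out they ranged from 51 to 59, where 26.3% to 34.6% of all loci were called. For Scr the 15 calls became 9 without a filter, 23 on FPKM and 8 with the compared groups alone, and for miR-92b 29 became 15 with the compared groups alone. Calls over all loci under these alternatives were not set beside them, so these moves describe the members only. With each sample left out, calls ranged from 22 to 32 for control (main 37), from 7 to 17 for Scr and from 13 to 33 for miR-92b, lowest without whole cell miR-92b sample 3. In the same order, the share of all loci called ranged from 5.46% to 8.26%, from 2.48% to 6.75% and from 6.26% to 18.7%. miR-92b against Scr and Scr against control in nuclear samples ranged from 0 to 1, the 1 without nuclear Scr sample 1, where 0.315% and 0.443% of all loci were called. DESeq2 called 1 member for miR-92b against Scr in whole cell samples (1.13% of all loci). Direction turned for Ndufa4l2 (-0.086 with a pseudocount of 8), Ndufs1 (0.076 with equal medians) and, on FPKM, Cox7b2 (-0.91, and -1.12 with control), Ndufab1 (-0.41), Sdha (-0.059) and Ndufa4 (-1.85), and the cause was not tested. With each sample left out, values ranged from -0.051 to 0.12 for Ndufab1, -0.12 to 0.12 for Ndufs1, -0.039 to 0.11 for Sdha and -0.058 to 0.77 for Ndufa4l2, so signs turned. Equal medians moved the median of all loci from 0.14 to 0.23 and gave 50 lower and 4 higher members. Samples with the same number correlated little (45 pairs, r from -0.04 to 0.11, 1 over 0.1). However, 11 of 18 samples were closest to their own number, so a pairing cannot be set aside. With the number as a replicate block the averaged comparison had 56 calls, control 35, Scr 19 and miR-92b 28, treatment comparisons had 0, and the implied length had 36 (main 35, and 31 to 38 with each sample left out).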
